A study of Arabidopsis thaliana with 29 samples.

Results

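The 150 nuclear genes described here were the ones whose expression stood out most at 9 days without water in whole plants of Arabidopsis thaliana Col0, the wild type. Among 33445 nuclear loci, 5082 had a mean of at least 10 TPM (a share of all transcripts, corrected for their length) in Col0 at 9 D, and 1987 of these were higher at 9 D than at 0 D, 12 D and 15 D. Each was given a score, log2(mean TPM + 1) at 9 D minus the highest such value of the other 3 days, and the 150 highest scores were taken. The genes were therefore chosen by their measured Col0 levels at 0 D, 9 D, 12 D and 15 D, and these levels are given as a description with no test. The pp7l libraries and Col0 at 6 D had no part in the choice, and tests were made between days of pp7l.

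RNA was sequenced from 3-week-old plants in soil under long days, at 0 D, 6 D, 9 D, 12 D and 15 D without water. The groups were pp7l, a mutant of the gene PP7L, at each day with 3 libraries, and Col0 at each day with 3 libraries except at 6 D with 2 (replicates 1 and 3). The labels give different allele numbers for the mutant, so it is written pp7l. They name no plants kept watered at the later days, so time without water and age cannot be told apart, and they do not say whether libraries of a group came from separate plants or pots. P-values therefore measure the spread between libraries only.

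As background, plants that run short of water close their stomata and produce abscisic acid, and their outer surface carries cutin and wax that limit water loss. Secondary walls of cellulose, xylan and lignin are laid down in xylem and fibres, for example in a growing flower stem. The tapetum, the inner layer of the anther, makes the lipids and glycine-rich oleosin-like proteins of the pollen coat. PP7L is a nuclear protein related to a serine/threonine phosphatase, known for a role in chloroplast development. The level of PP7L itself was not analysed here.

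TPM values are shares of a total in which plastid and mitochondrial transcripts took 62.0 to 71.5% in pp7l and 14.3 to 87.5% in Col0. At 9 D these transcripts took 69.3, 69.3 and 68.8% in pp7l, against 63.7, 62.6 and 64.8% in Col0. Nuclear rRNA took 25.0% in Col0 12 D replicate 3, and 27.5 and 61.2% in Col0 15 D replicates 1 and 3, while no other library exceeded 2.06%. The choice of genes depended on this scale: after median-of-ratios scaling 76 of the 150 would be chosen again, and 79 when only nuclear loci without rRNA were counted. Of the 150, 149 were highest at 9 D of the 4 Col0 days after median-of-ratios scaling, and all 150 among nuclear loci without rRNA. The third pp7l library at 15 D stood apart: 138 of the 150 genes (92.0%) were higher in it than in both others, as against 56.9% of the other 4932 loci with at least 10 TPM in Col0 at 9 D. The pair of Col0 libraries at 6 D also differed, with 71 genes above their Col0 0 D mean in replicate 1 and 146 in replicate 3. In whole-plant RNA, fewer cells of a type and less RNA per cell cannot be told apart.

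Promoters are given for 6 of the genes, for which the 250 bases before the annotated start overlap no other locus. They stand for secondary walls (CESA7, LAC4), wax (CYP96A15, CER1), the pollen coat (GRP19) and a gene higher in pp7l (BGLU18). Sequences and coordinates come from the RefSeq annotation of TAIR10.1 and run 5′ to 3′ toward the gene. Capitals mark any of 10 motifs on either strand: the G-box (CACGTG), the ABRE core (ACGTG), the W-box (TTGAC), site II (TGGGCC), the DRE core (CCGAC), the GCC-box (GCCGCC), the TATA-box (TATAAA), the NAC core (CATGTG), a MYB site (CAACTG) and another MYB site (CCAACC). The ABRE core lies within the G-box, so each G-box also counts as an ABRE core.

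CESA7 (AT5G17420), chr5:5741501-5741750, minus strand: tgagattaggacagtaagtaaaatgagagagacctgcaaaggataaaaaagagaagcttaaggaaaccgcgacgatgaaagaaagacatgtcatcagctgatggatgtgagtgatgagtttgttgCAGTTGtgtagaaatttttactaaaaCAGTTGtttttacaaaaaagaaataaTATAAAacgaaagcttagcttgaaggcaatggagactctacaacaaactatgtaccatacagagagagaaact

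LAC4 (AT2G38080), chr2:15933994-15934243, plus strand: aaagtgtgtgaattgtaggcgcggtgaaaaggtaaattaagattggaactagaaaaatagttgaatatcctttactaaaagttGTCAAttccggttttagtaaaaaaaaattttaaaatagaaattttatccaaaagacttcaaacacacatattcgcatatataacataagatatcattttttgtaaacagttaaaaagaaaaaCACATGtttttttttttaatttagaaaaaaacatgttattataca

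CYP96A15 (AT1G57750), chr1:21385710-21385959, minus strand: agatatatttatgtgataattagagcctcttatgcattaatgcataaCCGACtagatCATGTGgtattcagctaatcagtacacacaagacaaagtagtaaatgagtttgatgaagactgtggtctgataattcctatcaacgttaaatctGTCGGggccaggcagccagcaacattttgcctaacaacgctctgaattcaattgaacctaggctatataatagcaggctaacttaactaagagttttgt

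CER1 (AT1G02205), chr1:418166-418415, plus strand: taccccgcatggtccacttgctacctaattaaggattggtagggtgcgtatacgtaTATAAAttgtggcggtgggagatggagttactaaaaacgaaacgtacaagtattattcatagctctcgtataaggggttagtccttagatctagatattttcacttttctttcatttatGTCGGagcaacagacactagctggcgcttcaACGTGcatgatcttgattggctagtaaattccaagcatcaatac

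GRP19 (AT5G07550), chr5:2389250-2389499, minus strand: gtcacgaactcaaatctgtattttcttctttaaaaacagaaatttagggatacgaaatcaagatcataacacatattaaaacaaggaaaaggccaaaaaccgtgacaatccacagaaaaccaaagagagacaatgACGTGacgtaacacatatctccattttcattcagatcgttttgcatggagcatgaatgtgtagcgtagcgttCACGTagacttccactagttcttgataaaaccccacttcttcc

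BGLU18 (AT1G52400), chr1:19514739-19514988, plus strand: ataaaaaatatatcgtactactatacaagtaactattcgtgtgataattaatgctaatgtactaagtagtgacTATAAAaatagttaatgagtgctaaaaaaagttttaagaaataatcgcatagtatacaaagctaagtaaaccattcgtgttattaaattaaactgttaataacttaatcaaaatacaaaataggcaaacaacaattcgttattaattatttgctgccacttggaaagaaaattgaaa

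CESA7 carries a pair of CAACTG matches and a TATA-box, LAC4 a W-box and a NAC core, and CYP96A15 a pair of DRE cores around a NAC core. CER1 carries a TATA-box, a DRE core and an ABRE core, GRP19 a pair of ABRE cores, and BGLU18 a TATA-box. These are matches of letters and not shown to be sites. Shares of promoters with each motif were taken over the 148 protein-coding genes of the 150, over the 4981 protein-coding loci with at least 10 TPM in Col0 at 9 D, and over all 27294 protein-coding nuclear loci. The ABRE core was in 26.4% of the 148, against 25.3 and 22.9% of the 4981 and the 27294, and the G-box in 5.41%, against 8.47 and 6.50%. The W-box was in 36.5%, against 43.2 and 44.9%, and site II in 5.41%, against 18.7 and 13.7%. The DRE core was in 12.2%, against 13.3 and 12.0%, the NAC core in 14.2%, against 11.4 and 11.1%, and the TATA-box in 47.3%, against 45.6 and 47.3%. The GCC-box was in none of the 148, against 1.83 and 1.87%. CAACTG was in 6.08%, against 6.32 and 6.23%, and CCAACC in 6.08%, against 6.95 and 6.31%.

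Scores ran up to 4.89, with a median of 2.00, and the lowest was 1.61. The 5 genes just inside the limit were AT5G63410, CESA7, SLP2, LpxC4 and FLR1, with scores of 1.63, 1.62, 1.62, 1.62 and 1.61. Those just outside were MS2 (methionine synthase, AT3G03780), GH9A1, AT1G11700, FLS1 and PROT1, with scores of 1.61, 1.61, 1.61, 1.60 and 1.59. Mean levels in Col0 at 9 D ran from 10.1 to 1007 TPM with a median of 23.3 TPM, and 16 genes reached 100 TPM. The next highest of the 4 Col0 days was 12 D for 76 genes and 0 D for 74, and 121 genes were lowest at 15 D. In Col0, 41 genes had a mean under 1 TPM at 0 D, 35 at 12 D and 105 at 15 D. In 147 genes every Col0 9 D library lay above every Col0 library of 0 D, 12 D and 15 D, which the choice favoured and which 20.8% of all 18757 tested loci also showed. The exceptions, DVL21 (a small DVL peptide), AT4G09731 and the microRNA precursor MIR319b, were listed at 0 in at least 1 of the Col0 9 D libraries and are the least certain. Col0 at 6 D, which the choice did not use, had a higher mean than 9 D in 4 genes. Gene by gene, Col0 6 D replicate 3 was a median of 1.44 log2 units above the Col0 0 D mean, and replicate 1 was 0.00 above it.

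**Figure D1:**
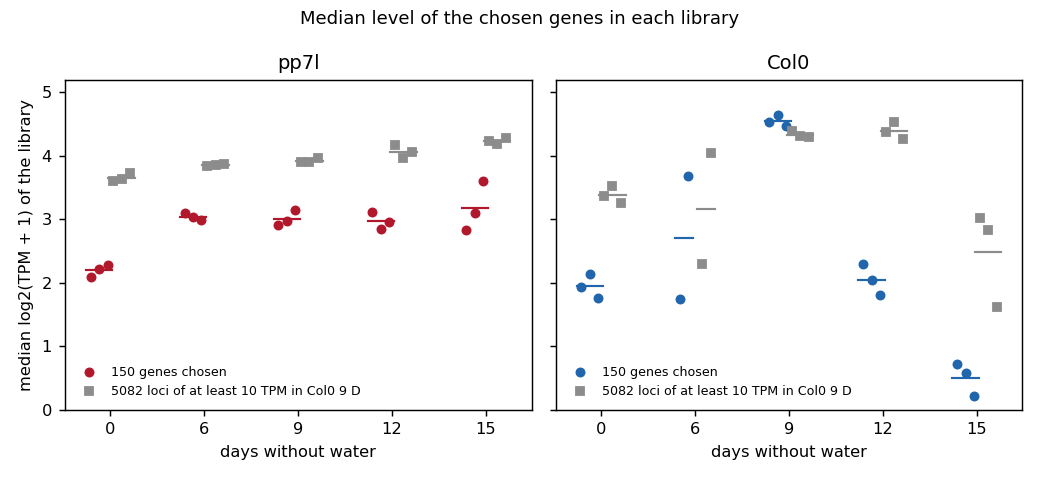
Median log2(TPM + 1) of the 150 genes (circles) and of the 5082 loci with at least 10 TPM in Col0 at 9 D (squares), per library, against days without water, for pp7l (left) and Col0 (right). Bars are group means. In pp7l the median of the 150 genes is 2.84 to 3.60 in every library from 6 D on, while in Col0 it is 4.47 to 4.64 at 9 D and 0.21 to 0.73 at 15 D.

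In pp7l the 150 genes did not form a peak at 9 D. Their median log2(TPM + 1) was 2.09, 2.22 and 2.28 at 0 D, 3.10, 3.04 and 2.99 at 6 D, 2.91, 2.97 and 3.15 at 9 D, 3.12, 2.85 and 2.96 at 12 D, and 2.84, 3.10 and 3.60 at 15 D. Every library from 6 D on lay above every 0 D library, and the later days overlapped. The median of the 5082 loci with at least 10 TPM in Col0 at 9 D was also higher in every later library. It was 3.60 to 3.72 at 0 D and 3.83 to 4.28 from 6 D on. By mean TPM, 15 genes (10%) were highest at 9 D in pp7l, 47 (31.3%) at 6 D and 64 (42.7%) at 15 D. Among the other 4932 loci with at least 10 TPM in Col0 at 9 D, 3.95% were highest at 9 D, 7.04% at 6 D and 55.9% at 15 D. Without the third library at 15 D, 32 of the 150 were highest at 9 D in pp7l.

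Each later day of pp7l was tested against pp7l at 0 D with limma on log2(TPM + 1), with p-values adjusted by Benjamini-Hochberg over 18757 loci at 0.05. At 6 D, 81 of the 150 genes (54.0%) rose and 0 fell (3 were lower at an unadjusted p under 0.05), while 37.4% of all tested loci rose and 11.1% fell. At 9 D, 70 (46.7%) rose and 7 (4.67%) fell, against 47.0% and 11.5% of all tested loci. At 12 D, 74 (49.3%) rose and 7 (4.67%) fell, against 54.3% and 11.8%. At 15 D, 84 (56.0%) rose and 8 (5.33%) fell, against 63.7% and 10.1%. All 150 passed the filter through Col0 at 9 D, and 43 had a pp7l 0 D mean under 1 TPM, where a fall can hardly be called. Nothing is therefore read from the shares that fell. On the deposited TPM scale the share that rose was above the background at 6 D and near or below it later. The median change of the 150 genes was 0.63, 0.56, 0.54 and 0.81 log2 units at 6 D, 9 D, 12 D and 15 D, beside 0.25, 0.34, 0.46 and 0.61 for all tested loci. Since the median locus itself moved by more than 0.1, changes are best read relative to it. Median-of-ratios scaling, which sets that shift to about 0, gave 63 genes that rose and 11 that fell at 6 D, 52 and 21 at 9 D, 49 and 29 at 12 D, and 48 and 34 at 15 D. On that scale the 4 later days, from 6 D to 15 D, had 42.0, 34.7, 32.7 and 32.0% of the 150 called higher, against 21.9, 23.6, 26.6 and 29.1% of all 18326 loci tested there. The 150 thus lay above the background at 6 D, 9 D and 12 D, most at 6 D. At 15 D they lay near it. The shares that fell were 7.33, 14.0, 19.3 and 22.7% of the 150, against 26.2, 29, 29.8 and 30.1% of all. Among nuclear loci without rRNA, 51.3, 46.7, 41.3 and 46.7% of the 150 rose at these days, against 34.3, 39.5, 41.8 and 46.6% of the 21461 loci tested. The position of the 150 relative to the background at 9 D, 12 D and 15 D therefore depended on the scale. Without the third library at 15 D, 74 rose and 17 fell at 15 D, and without the first library 111 rose and 2 fell. Between 12 D and 9 D of pp7l, 7 genes (4.67%) rose and 2 (1.33%) fell, beside 7.19% and 1.95% of all tested loci, and after median-of-ratios scaling 6 rose and 5 fell (4.00 and 3.33%), beside 4.73 and 3.72%. When all 29 libraries shared 1 variance, SDI1 alone rose between 12 D and 9 D and 0 genes fell. Gene by gene, 62 were called higher than 0 D at all 4 later days, and 52 at none. The highest pp7l day mean was under 2 TPM in 20 of the 150 genes, which left little room for a call.

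**Figure D2:**
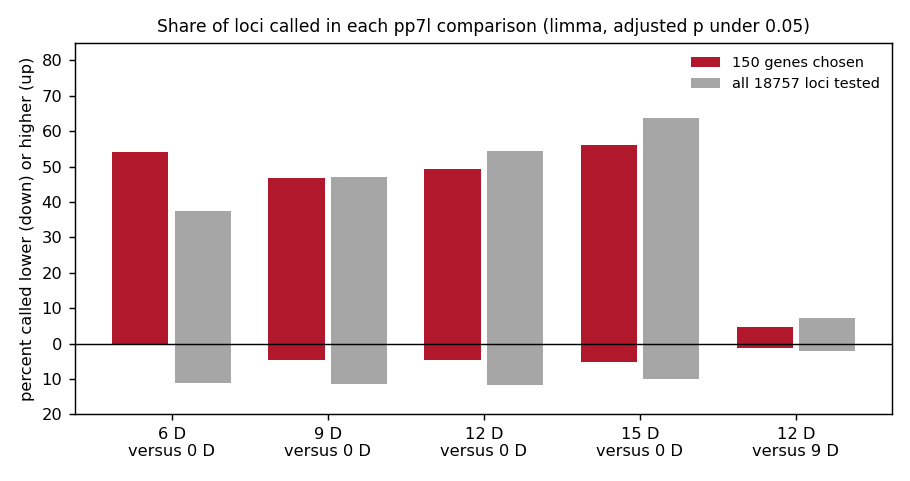
Percent of loci called higher (upward bars) or lower (downward bars) in 5 comparisons between days of pp7l, for the 150 genes (red) and all 18757 tested loci (grey). On this TPM scale the genes exceed the background in the upward direction at 6 D (54.0 against 37.4%) and lie near or below it in the other comparisons; after median-of-ratios scaling, not drawn, they lie above it at all 4 later days over 0 D.

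At 9 D, every pp7l library lay below every Col0 library in 132 of the 150 genes, where 40.3% of all tested loci and 67.3% of the 5082 loci with at least 10 TPM in Col0 at 9 D did so. Because high Col0 9 D values chose the genes, this direction was favoured and nothing is read from it. The opposite order, every pp7l library above every Col0 library, which the choice did not favour, was found in 5 genes (12.4% of all tested loci): BGLU18, TSA1, MBP1, AT1G52000 and PHOT1. The median difference, pp7l at 9 D minus Col0 at 9 D, was -1.59 log2 units in the 150 genes and -0.42 in the 5082 loci. In 112 genes all 15 pp7l libraries lay below all 3 Col0 9 D libraries, as in 14.5% of tested loci. The highest of the 5 pp7l day means was under 10% of the Col0 9 D mean in 29 genes, 10 to 50% in 57, 50 to 100% in 49, and 100% or more in 15.

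**Figure D3:**
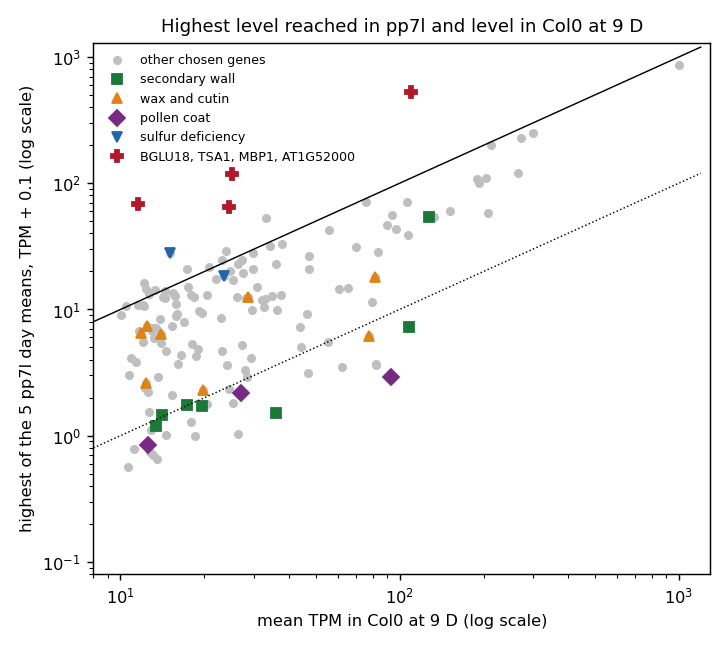
Highest of the 5 pp7l day means (TPM + 0.1, log scale) against the mean in Col0 at 9 D (TPM, log scale), 1 point per gene. The solid line is equality and the dotted line 10% of the Col0 value; genes of secondary walls and the pollen coat lie low, and BGLU18, TSA1, MBP1 and AT1G52000 lie above equality.

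Of 21 listed secondary wall genes, 7 were among the 150. They were the cellulose synthases CESA4, CESA7 and CESA8 (named IRX3 and IRX1 for the last pair in the annotation), the fasciclin-like arabinogalactan proteins FLA11 and FLA12 found in secondary walls, the lignin laccase LAC4 (IRX12) and the monolignol methyltransferase CCoAOMT1. Summed over the 7, pp7l had 38.2, 43.3 and 50.9 TPM at 0 D, 68.3, 70.2 and 63.3 at 6 D, 44.3, 45.2 and 48.5 at 9 D, 45.4, 35.7 and 35.9 at 12 D, and 41.4, 42.1 and 80.0 at 15 D. Col0 had 37.0, 44.2 and 34.2 TPM at 0 D, 15.5 and 63.4 at 6 D, 356, 359 and 296 at 9 D, 81.0, 73.1 and 70.0 at 12 D, and 11.4, 8.53 and 2.87 at 15 D. Every pp7l library lay below every Col0 9 D library, an order the choice favoured, and the third pp7l library at 15 D was the highest of pp7l.

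CESA7 had 0.703, 0.469 and 0.912 TPM in pp7l at 9 D, against 15.1, 15.1 and 10.1 TPM in Col0 at 9 D. FLA12 had 0.649, 0.484 and 0.161 TPM in pp7l at 9 D, against 36.6, 40.6 and 31.2 TPM in Col0. FLA11 had 2.71, 4.49 and 3.04 TPM in pp7l at 9 D, against 115, 120 and 89.7 TPM in Col0. CCoAOMT1 was closer to its Col0 level, with 37.1, 36.8 and 40.6 TPM in pp7l at 9 D, against 138, 125 and 120 TPM in Col0. In pp7l, CESA4 rose at 6 D by 0.74 ± 0.27 log2 units over 0 D (SE; limma adjusted p = 0.0386), CESA8 by 0.70 ± 0.25 (limma adjusted p = 0.0314) and CCoAOMT1 by 0.56 ± 0.15 (limma adjusted p = 0.00872), the last not called after median-of-ratios scaling. CESA4 was not called when any 1 of the 6 libraries was left out, nor CESA8 without the first or second library of either day. None of the 7 was called at 9 D, 12 D or 15 D in limma. At 15 D the third library had 2.14 TPM of CESA7, 3.57 of FLA12 and 10.9 of FLA11, and the first and second libraries had 0.256 and 0.403 TPM of CESA7, 0.243 and 0.438 of FLA12, and 1.47 and 1.61 of FLA11. Without that library FLA11 fell at 15 D by 1.19 log2 units (limma adjusted p = 8.47e-05), and FLA12 and LAC4 were also called lower. Of all 21 listed genes, 21 were highest at 9 D of the 4 Col0 days, which the choice required of the 7. Among the 5082 loci with at least 10 TPM in Col0 at 9 D, a level that 16 of the 21 reached, 1987 were. In pp7l, where 20 could be tested, 11 rose and 0 fell at 6 D (0 also at an unadjusted p under 0.05), 1 rose and 3 fell at 9 D, 4 rose and 3 fell at 12 D, and 4 rose and 2 fell at 15 D. Of all tested loci, 37.4, 47.0, 54.3 and 63.7% rose at these days, and 11.1, 11.5, 11.8 and 10.1% fell.

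Levels at 9 D are given here for other wall genes among the 150. As for all 150, the choice favoured lower values in pp7l, and nothing is read from that direction. The chitinase-like protein CTL2, required for cellulose deposition in secondary walls, had 1.86, 2.19 and 1.79 TPM in pp7l at 9 D, against 68.5, 67.8 and 49.8 TPM in Col0. ESK1, a xylan acetyltransferase, had 0.757, 0.578 and 0.617 TPM in pp7l at 9 D, against 12.5, 12.3 and 13.2 TPM in Col0. UXS6, which makes UDP-xylose for xylan, had 1.99, 1.78 and 1.92 TPM in pp7l at 9 D, against 15.5, 12.6 and 12.7 TPM in Col0. IRX15-L, a xylan-related protein, had 1.46, 1.70 and 1.51 TPM in pp7l at 9 D, against 24.9, 29.4 and 18.9 TPM in Col0. Peroxidases and laccases numbered 5 of the 150 genes (3.33%), beside 18 of the 5082 loci with at least 10 TPM in Col0 at 9 D (0.354%). Among them PER64, a peroxidase known from lignin of the Casparian strip, had 0.930, 0.416 and 0.369 TPM in pp7l at 9 D, against 91.1, 85.3 and 71.0 TPM in Col0. LAC12, a laccase, had 0.0796, 0.401 and 0.357 TPM in pp7l at 9 D, against 15.5, 15.0 and 9.88 TPM in Col0. PRXR1, a peroxidase, differed from both: it was the most abundant of the 150 genes, with 815, 827 and 862 TPM in pp7l at 9 D, against 1050, 949 and 1022 TPM in Col0. PRXR1 rose in pp7l at 9 D by 1.51 ± 0.09 log2 units over 0 D (SE; limma adjusted p = 7.25e-08). FLA11, CESA4, CESA7, CESA8, IRX15-L and PER64 overlap another annotated locus, among 31 such genes, and the sources do not state whether reads were assigned by strand.

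Genes of wax and cutin numbered 8 of the 31 listed. CYP96A15, the midchain alkane hydroxylase of stem wax, CER1 of alkane formation, CER4, which makes primary alcohols, and CER2, which acts in very-long-chain elongation, belong to wax. CYP77A6 and DCR (PEL3 in the annotation) act in cutin synthesis, and the acyl-CoA synthetases LACS1 and LACS2 activate fatty acids for wax and cutin. Summed over the 8, pp7l had 39.1, 39.5 and 40.7 TPM at 0 D, 45.5, 42.5 and 48.2 at 6 D, 40.6, 46.2 and 48.2 at 9 D, 41.1, 35.2 and 38.8 at 12 D, and 30.5, 41.4 and 92.3 at 15 D. Col0 had 24.5, 28.8 and 13.0 TPM at 0 D, 25.7 and 104 at 6 D, 268, 256 and 252 at 9 D, 43.4, 32.0 and 30.5 at 12 D, and 3.42, 3.23 and 0.919 at 15 D. The sum lay between 35.2 and 48.2 TPM in every pp7l library up to 12 D, and the third library at 15 D was again the highest.

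CYP96A15 had 0.0772, 0.173 and 1.42 TPM in pp7l at 9 D, against 87.4, 72.1 and 74.1 TPM in Col0. It rose in pp7l at 15 D by 1.99 ± 0.66 log2 units over 0 D (SE; limma adjusted p = 0.0156), with 0.410, 1.70 and 16.2 TPM in the 3 libraries, and by 0.94 without the third (limma adjusted p = 0.0231). CER1 had 15.3, 16.2 and 15.1 TPM in pp7l at 9 D, against 79.7, 86.2 and 79.0 TPM in Col0. CER1 rose at 6 D by 0.73 ± 0.23 log2 units (SE; limma adjusted p = 0.0173) and at 15 D by 0.56 ± 0.23 (limma adjusted p = 0.0406), and neither call held after median-of-ratios scaling, nor the second without the third library at 15 D. CER4 had 0.472, 0.649 and 0.646 TPM in pp7l at 9 D, against 22.4, 18.5 and 18.3 TPM in Col0. It rose at 15 D by 1.29 ± 0.35 (SE; limma adjusted p = 0.00499), and by 0.74 without the third library (limma adjusted p = 0.00288). LACS1 rose at 15 D by 0.66 ± 0.22 (limma adjusted p = 0.0171), but LACS1 was not called without the third library or after median-of-ratios scaling. CER2 fell at 12 D and 15 D, at 12 D by 0.52 ± 0.20 (limma adjusted p = 0.0395; not called when any 1 of the 6 libraries was left out), and DCR at 12 D by 0.83 ± 0.22 (limma adjusted p = 0.00566). Over the 31 listed genes, 25 were highest at 9 D of the 4 Col0 days, which the choice required of the 8. Among the 5082 loci with at least 10 TPM in Col0 at 9 D, a level that 16 of the 31 reached, 1987 were. In pp7l, 6 rose and 3 fell at 6 D, 5 rose and 7 fell at 9 D, 3 rose and 8 fell at 12 D, and 10 rose and 7 fell at 15 D. Of all tested loci, 37.4, 47.0, 54.3 and 63.7% rose at these days, and 11.1, 11.5, 11.8 and 10.1% fell.

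Pollen coat genes numbered 3 of 7 listed: GRP19, a glycine-rich oleosin-like protein, and the extracellular lipases EXL4 (AT1G75910) and EXL6. They were listed at 0 in all 6 libraries of pp7l at 0 D and 6 D and in all 3 Col0 libraries at 0 D. Summed, pp7l had 0, 0.39 and 6.21 TPM at 9 D, 0.605, 0.309 and 0.561 at 12 D, and 0.148, 0.425 and 16.3 at 15 D. Col0 had 7.13 and 86.3 TPM at 6 D, 98.0, 141 and 160 at 9 D, 14.0, 4.35 and 3.55 at 12 D, and 2.57, 3.37 and 0.623 at 15 D. These genes passed the filter through the Col0 9 D libraries, and with values at or near 0 in most pp7l libraries their tests between days of pp7l carry no information. The third libraries of pp7l at 9 D and 15 D were the highest of their groups.

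GRP19 had 0, 0 and 3.76 TPM in pp7l at 9 D, against 68.9, 103 and 109 TPM in Col0. Beside it on chromosome 5 lies GRP20, another glycine-rich gene among the 150, with 0, 0.157 and 0.626 TPM in pp7l at 9 D, against 13.0, 22.3 and 20.2 TPM in Col0. On chromosome 1, EXL4 (chr1:28501434-28503283), EXL6 (chr1:28508072-28509881) and ATA27 (chr1:28511142-28514284), an anther glycosyl hydrolase, lie within 2 genes of each other. EXL4 had 0, 0.390 and 1.99 TPM in pp7l at 9 D, against 18.7, 26.2 and 36.4 TPM in Col0. ATA27 had 0, 0.245 and 2.18 TPM in pp7l at 9 D, against 14.0, 21.0 and 26.3 TPM in Col0. LTP12, a lipid transfer protein of the tapetum, had 0.560, 0.207 and 1.62 TPM in pp7l at 9 D, against 27.9, 59.8 and 45.3 TPM in Col0. It rose in pp7l at 15 D by 2.31 ± 0.51 log2 units over 0 D (SE; limma adjusted p = 0.00132), and by 1.78 without the third library (limma adjusted p = 0.00594).

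Marker lists of flower parts, none of whose genes are among the 150, were summed in the same way. Summed over 9 floral organ identity genes (AP1, AP3, PI, AG, SEP1 to SEP3, FUL and LFY), pp7l had 5.51, 4.99 and 7.87 TPM at 9 D and 8.23, 10.4 and 21.6 at 15 D, while Col0 had 50.04 to 55.3 TPM at 9 D and 43.0 to 48.0 at 12 D. Of the 9, 6 were highest at 9 D of the 4 Col0 days, as were 1987 of the 5082 loci with at least 10 TPM in Col0 at 9 D. Only 2 of the 9 reached that level, so these sets are unlike. In pp7l 8 of them could be tested, and all 8 rose at 15 D over 0 D, beside 63.7% of all tested loci. Over 14 stamen and tapetum genes the sums were 3.81, 2.20 and 10.3 TPM in pp7l at 9 D and 11.6, 8.63 and 15.7 at 15 D, against 20.2 to 23.2 in Col0 at 9 D and 7.14 to 14.7 at 12 D. Of these 14, 11 were highest at 9 D of the 4 Col0 days, DYT1 was listed at 0 in all Col0 9 D libraries, and 11 were listed at 0 in all pp7l 0 D libraries. Over 6 mature pollen genes the sums were 0 in all 3 pp7l libraries at 9 D, against 29.7 to 38.6 TPM in Col0 at 9 D and 26.3 to 49.05 at 12 D. Over 6 carpel and ovule genes they were 0.300 to 0.396 TPM in pp7l at 9 D, against 6.02 to 8.01 in Col0 at 9 D and 11.8 to 19.0 at 12 D. In Col0 the pollen coat members were lower at 12 D (3.55 to 14.0 TPM) than at 9 D, a direction set by the choice of genes. The carpel and ovule sum, which the choice did not set, was higher at 12 D, and the mature pollen sums overlapped. Timing is therefore not compared between the pollen coat members and these lists. The part of flowers in the levels of the 150 genes was not tested.

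**Figure D4:**
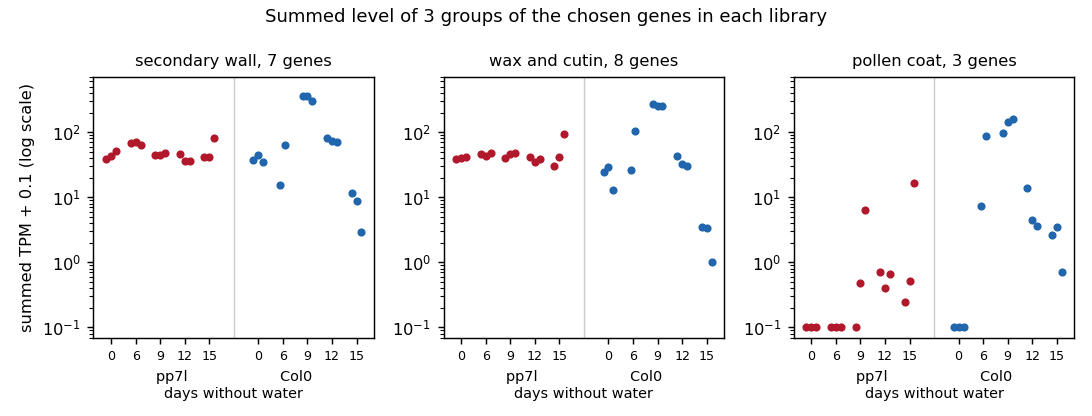
Summed TPM + 0.1 (log scale) of the secondary wall (7), wax and cutin (8) and pollen coat (3) genes in each library, pp7l on the left of each panel and Col0 on the right, against days without water. In each panel the 3 Col0 9 D libraries are the highest, which the choice of genes favoured, and the third pp7l library at 15 D is the highest of pp7l.

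The 4 genes furthest above Col0 at 9 D in pp7l lie in 2 neighbourhoods of chromosome 1 and belong to the endoplasmic reticulum body and to myrosinase-associated lectins. BGLU18 (chr1:19514989-19518411), a beta-glucosidase of these bodies known to release abscisic acid from its glucose ester, lies next to TSA1 (chr1:19520603-19525685), which is known to act in their formation. MBP1 (chr1:19350314-19352791), a myrosinase-binding protein, and AT1G52000 (chr1:19333088-19336135), a mannose-binding lectin, lie nearby with 3 genes between them. BGLU18 had 577, 571 and 445 TPM in pp7l at 9 D, against 91.5, 117 and 121 TPM in Col0. TSA1 had 67.5, 62.1 and 74.3 TPM in pp7l at 9 D, against 9.95, 11.5 and 13.3 TPM in Col0. MBP1 had 128, 130 and 98.2 TPM in pp7l at 9 D, against 19.9, 24.8 and 30.7 TPM in Col0. AT1G52000 had 64.4, 62.8 and 66.6 TPM in pp7l at 9 D, against 20.5, 24.2 and 28.7 TPM in Col0. At 0 D, BGLU18 had 78.8, 81.4 and 103 TPM in pp7l, against 26.9, 33.8 and 19.3 TPM in Col0, so the order was the same before water was withheld.

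All 4 rose in pp7l at every later day (limma). At 9 D over 0 D, TSA1 rose by 3.29 ± 0.16 log2 units (SE; limma adjusted p = 2.46e-08), BGLU18 by 2.59 ± 0.18 (limma adjusted p = 3.11e-07), MBP1 by 2.54 ± 0.13 (limma adjusted p = 3.41e-08) and AT1G52000 by 2.45 ± 0.09 (limma adjusted p = 2.73e-09). None of them was called between 12 D and 9 D in pp7l. At 15 D, BGLU18 had 287, 349 and 293 TPM in pp7l, against 0.895, 0.632 and 0.325 TPM in Col0. VSP1, a jasmonate-responsive storage protein, shared the rise within pp7l but not the order between genotypes. It had 53.4, 63.5 and 64.4 TPM in pp7l at 9 D, against 139, 167 and 150 TPM in Col0, and rose in pp7l at 9 D by 3.23 ± 0.35 (SE; limma adjusted p = 1.08e-05). PHOT1, a blue light receptor, had 44.2, 48.3 and 65.6 TPM in pp7l at 9 D, against 33.5, 32.6 and 33.5 TPM in Col0.

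**Figure D5:**
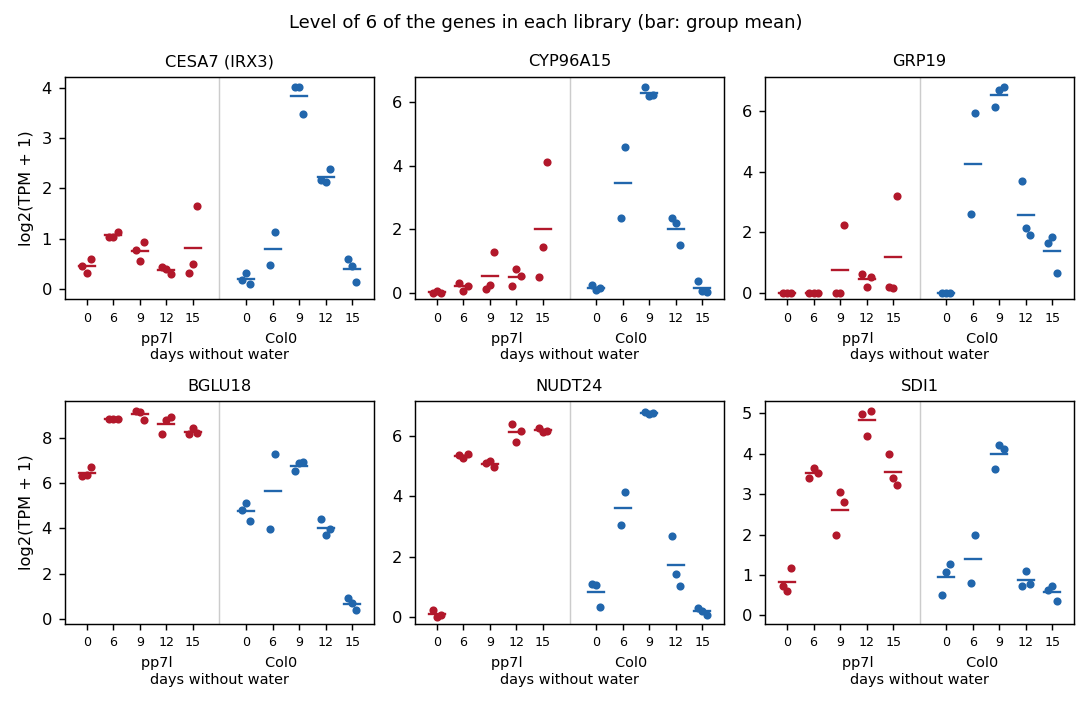
Level of 6 of the genes as log2(TPM + 1) in each library, with pp7l on the left and Col0 on the right of each panel against days without water; bars are group means. GRP19 stays low in pp7l apart from replicate 3 at 9 D and 15 D, and CYP96A15 and CESA7 apart from replicate 3 at 15 D. BGLU18 is higher in pp7l, and NUDT24 and SDI1 are high in pp7l at 12 D and 15 D.

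NUDT24 and genes of sulfur shortage and inositol synthesis rose in pp7l at all 4 later days. NUDT24, a nudix hydrolase with the second highest score, had 0.184, 0 and 0.0639 TPM at 0 D in pp7l, 40.1, 37.2 and 41.2 at 6 D, 32.9, 34.5 and 30.2 at 9 D, 82.6, 54.2 and 70.0 at 12 D, and 74.4, 67.9 and 70.4 at 15 D. In Col0 it had 1.12, 1.101 and 0.270 TPM at 0 D, 7.22 and 16.8 at 6 D, 109, 103 and 107 at 9 D, 5.49, 1.73 and 1.04 at 12 D, and 0.239, 0.166 and 0.0672 at 15 D. NUDT24 had the largest rise of the 150 genes in pp7l at each later day over 0 D, 4.95 ± 0.12 log2 units at 9 D (SE; limma adjusted p = 1.04e-10) and 6.06 ± 0.12 at 15 D (limma adjusted p = 1.37e-11). At 12 D it rose over 9 D by 1.04 ± 0.12 (limma adjusted p = 0.000169).

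Of 7 sulfur deficiency genes listed, 2 were among the 150, SDI1 (ATSDI1 in the annotation), a repressor of glucosinolate synthesis, and LSU1. SDI1 had 2.97, 7.34 and 6.01 TPM at 9 D and 30.9, 20.8 and 32.3 at 12 D in pp7l, against 11.3, 17.6 and 16.2 TPM at 9 D and 0.648, 1.15 and 0.714 at 12 D in Col0. It rose in pp7l at 12 D over 9 D by 2.21 ± 0.28 log2 units (SE; limma adjusted p = 0.000257) and over 0 D by 4.00 ± 0.28 (limma adjusted p = 1.43e-07). LSU1 had 6.17, 9.07 and 9.65 TPM in pp7l at 9 D, against 19.5, 30.5 and 20.6 TPM in Col0, and rose in pp7l at 9 D over 0 D by 1.84 ± 0.43 (SE; limma adjusted p = 0.00278). Of the 6 listed genes that could be tested in pp7l, all 6 rose at every later day except 9 D, when 5 did, and 0 fell at an adjusted or an unadjusted p under 0.05 (limma). At 6 D, 9 D, 12 D and 15 D, 37.4, 47.0, 54.3 and 63.7% of all tested loci also rose.

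MIPS1 and MIPS2 make inositol phosphate. MIPS1 had 56.9, 57.7 and 61.3 TPM in pp7l at 9 D, against 211, 179 and 181 TPM in Col0, and rose in pp7l at 12 D over 9 D by 0.57 ± 0.07 log2 units (SE; limma adjusted p = 0.000341). MIPS2 had 12.6, 12.5 and 14.6 TPM in pp7l at 9 D, against 54.3, 43.2 and 44.9 TPM in Col0, and rose in pp7l at 6 D over 0 D by 2.23 ± 0.12 (SE; limma adjusted p = 6.81e-08). NF-YA10, a subunit of a CCAAT-binding factor, had 8.82, 8.63 and 9.31 TPM in pp7l at 9 D, against 30.7, 25.6 and 25.8 TPM in Col0, and rose in pp7l at 15 D over 0 D by 3.38 ± 0.17 (SE; limma adjusted p = 8.78e-09). DR4, annotated as drought-repressed 4, had 52.8, 71.6 and 83.4 TPM in pp7l at 9 D, against 183, 184 and 213 TPM in Col0. It rose in pp7l at 6 D over 0 D by 2.99 ± 0.23 (SE; limma adjusted p = 9.27e-07), with 96.6, 101 and 102 TPM at 6 D. Of 27 listed abscisic acid and dehydration genes, 26 rose and 1 fell in pp7l at 6 D, beside 37.4% and 11.1% of all tested loci. The galactinol synthase GolS1 was the only one among the 150. On the TPM scale it was called higher than 0 D at all 4 later days of pp7l (limma), by 1.67 log2 units at 6 D. The call at 12 D was lost after median-of-ratios scaling. GolS1 fell in pp7l at 12 D against 9 D by 0.39 ± 0.11 (limma adjusted p = 0.0438, not called when any 1 of the 6 libraries was left out). The elongation factor subunit AT5G12110 was the other gene that fell between these days, by 0.77 ± 0.12 (limma adjusted p = 0.00107). It too was called higher than 0 D at all 4 later days on the TPM scale.

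A few genes moved the other way in pp7l. MAT3, which makes S-adenosylmethionine, SHM4, a serine hydroxymethyltransferase of one-carbon metabolism, and ACLB-2, a subunit of ATP citrate lyase that makes cytosolic acetyl-CoA, fell at 9 D, 12 D and 15 D. MAT3 had 28.0, 30.6 and 29.05 TPM in pp7l at 9 D and 53.2, 53.3 and 55.6 at 0 D, a fall by 0.87 ± 0.15 log2 units (SE; limma adjusted p = 0.000451). In Col0, MAT3 had 141, 142 and 117 TPM at 9 D and 33.8, 40.7 and 16.1 at 0 D. SHM4 fell by 0.67 ± 0.18 at 9 D (SE; limma adjusted p = 0.00668) and ACLB-2 by 0.60 ± 0.21 (SE; limma adjusted p = 0.0253). The arabinogalactan protein AGP9 fell at 9 D by 0.76 ± 0.24 (SE; limma adjusted p = 0.015), the pectin lyase-like AT1G04680 by 0.48 ± 0.17 (SE; limma adjusted p = 0.0299), and the actin ACT11 by 0.89 ± 0.22 (SE; limma adjusted p = 0.00354). When all 29 libraries shared 1 variance, MAT3, AGP9, SHM4, ACLB-2 and AT1G04680 were not called at 9 D.

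Tubulins and actin were represented by TUB8, TUB6, TUB1, TUA3 and ACT11, components of microtubules and actin filaments. TUB8 had 7.47, 8.36 and 10.3 TPM in pp7l at 9 D, against 39.8, 37.1 and 32.3 TPM in Col0, and was not called at any later day in pp7l. TUB6 rose at 9 D in pp7l by 0.44 ± 0.15 (SE; limma adjusted p = 0.0202), but with median-of-ratios scaling it was not called at 9 D and fell at 12 D and 15 D. Transporters numbered 8, among them the amino acid permeases AAP2 and AAP6, the boron exporter BOR1, the ABC transporter ABCG22, known from stomatal regulation, and the vacuolar sugar carrier TMT1. AAP2 had 50.8, 47.9 and 65.8 TPM in pp7l at 9 D, against 97.6, 99.7 and 84.0 TPM in Col0. ABCG22 had 12.2, 10.8 and 13.6 TPM in pp7l at 9 D, against 30.7, 30.1 and 28.6 TPM in Col0. STM, the homeobox regulator of shoot meristems, had 3.03, 3.21 and 4.16 TPM in pp7l at 9 D, against 21.9, 19.2 and 15.0 TPM in Col0, and rose in pp7l at 9 D by 0.82 ± 0.27 (SE; limma adjusted p = 0.0206; not called after median-of-ratios scaling).

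The gene with the highest score, AT5G37970, an S-adenosylmethionine-dependent methyltransferase, had 0.369, 0.413 and 0.732 TPM in pp7l at 9 D, against 34.2, 23.3 and 30.4 TPM in Col0. In Col0 it was listed at 0 in all 6 libraries at 12 D and 15 D, and in pp7l it had 0.828, 1.56 and 9.60 TPM at 15 D. AT5G37940, a zinc-binding dehydrogenase separated from AT5G37970 by 2 genes, had 0.609, 0.632 and 1.74 TPM in pp7l at 9 D, against 21.2, 13.7 and 22.0 TPM in Col0. ADS4, a fatty acid desaturase homologue, had 0.739, 1.72 and 2.11 TPM in pp7l at 9 D, against 30.9, 27.8 and 26.4 TPM in Col0. AT2G20870, annotated as a cell wall protein precursor, and AT5G22430, of the extensin and Ole e 1 family, rose in pp7l at 9 D, 12 D and 15 D but not at 6 D. AT2G20870 had 1.27, 3.61 and 7.99 TPM at 9 D and 3.77, 8.93 and 21.5 at 15 D in pp7l, against 74.1, 84.1 and 81.7 TPM at 9 D and 0, 0 and 0 at 15 D in Col0. AT5G22430 rose in pp7l at 15 D over 0 D by 3.01 ± 0.48 log2 units (SE; limma adjusted p = 0.000103). XTH24, a xyloglucan enzyme of the primary wall, had 30.5, 29.2 and 26.1 TPM in pp7l at 9 D, against 227, 207 and 189 TPM in Col0. The non-coding RNA AT1G25175, with the third highest Col0 mean of the 150, had 178, 182 and 230 TPM in pp7l at 9 D, against 300, 256 and 261 TPM in Col0.

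Some classes had 0 genes among the 150. Of the 5082 loci with at least 10 TPM in Col0 at 9 D, 238 (4.68%) encode ribosomal proteins and 78 (1.53%) heat shock proteins or chaperones. Another 70 (1.38%) encode photosynthesis proteins and 26 (0.512%) histones, and 0 of the 150 belonged to any of these classes. At the shares of the heat shock, photosynthesis and histone classes, 150 genes would hold few, so nothing is read from their absence. By their annotation or the gene lists, 97 of the 150 fell into at least 1 class, and 53 into none. By chromosome, 46 lay on chromosome 5, 43 on chromosome 1, 26 on chromosome 4, 18 on chromosome 3 and 17 on chromosome 2.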

How the data were processed

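RNA of whole plants was sequenced in 29 libraries (Illumina Tru-Seq, per the labels' protocols). Per the submitters' processing notes, Trimmomatic, FastQC, Salmon and TAIR10 were used; versions are not given in the sources used here. The authors deposited TPM values per gene for 33681 loci, without counts, so the depth of each library is unknown and no counting error can be given. Columns were matched to samples by genotype, day and replicate number.

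From these values group means and the score were computed, and 150 genes taken. The genes, lists and word classes were chosen with earlier results of these data known; 2 word classes were corrected after false matches were seen. Names, coordinates and promoters came from the RefSeq annotation of TAIR10.1, which holds 32954 of the loci. Tests used limma 3.58.1 in R 4.3.3 on log2(TPM + 1) with an intensity trend, on the 15 pp7l libraries (10 residual degrees of freedom), for 18757 loci with at least 1 TPM in at least 3 libraries, which all 150 genes passed, having at least 10 TPM in Col0 at 9 D. P-values were adjusted by Benjamini-Hochberg over all tested loci at 0.05. Fold changes on this scale understate changes of low genes.

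Genes were named from the 20 highest scores, the 10 highest Col0 9 D means, 5 genes on each side of the limit, up to 10 rises and 5 falls per comparison, the 10 highest and 10 lowest genotype ratios, up to 5 genes per list or class, and neighbouring genes; which of these are shown was chosen after their values were seen, as were AAP6, AT4G04340, CER2, CESA8, IRX15-L, LACS1, LACS2 and TMT1 from outside this rule. Python 3.11.15, pandas 2.3.3 and matplotlib 3.10.9 were used. Other scalings, filters, pseudocounts, weights, a replicate block and leaving out libraries were tried.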

Additional observations from a re-analysis of the deposited data

Results flagged for a closer look

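In 10 of the 150 genes every pp7l 12 D library lay above every pp7l 9 D library while every Col0 12 D library lay below every Col0 9 D library: NUDT24, SDI1, LSU1, CESA5, AT1G68220, AT4G04340, MIPS1, NF-YA10, AT1G76360 and AT5G63410. The opposite order of these days between genotypes was not tested, and the Col0 side was fixed by how the genes were chosen. The share of all tested loci with both orders was not counted, so the 10 cannot be set against a background. Of the 10, NUDT24, SDI1, NF-YA10, MIPS1, AT5G63410, CESA5 and AT1G76360 were called higher at 12 D than at 9 D in pp7l with limma. They are the 7 genes (4.67% of the 150) that rose between these days, beside 7.19% of all tested loci.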

How the results depend on the processing

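Median-of-ratios scaling kept 76 of the 150 genes, scaling to nuclear loci without rRNA 79, and adding 6 D to the other days 96; leaving out 1 library at a time kept 138 to 150. Against 0 D in pp7l, median-of-ratios scaling gave 11 lower at 6 D, 21 lower at 9 D, 49 higher and 29 lower at 12 D, and 48 higher and 34 lower at 15 D, with 5 lower between 12 D and 9 D. With all 29 libraries in the fit, 52 were higher at 6 D, 1 was lower at 9 D, 1 at 12 D and 0 at 15 D, and between 12 D and 9 D 1 was higher and 0 lower. Array weights gave 3 lower at 6 D, 11 at 9 D and 12 at 12 D, and 16 higher and 6 lower between 12 D and 9 D. Between these days scaling to nuclear loci gave 3 higher and no filter gave 1 lower. Genes highest at 9 D in pp7l numbered 23 with group medians. Leaving out 1 library at a time gave 69 to 75 higher and 0 lower at 6 D, 68 to 71 higher and 4 to 6 lower at 9 D, 64 to 72 higher and 5 to 6 lower at 12 D, 74 to 111 higher and 2 to 17 lower at 15 D, 3 to 9 higher and 1 lower between 12 D and 9 D, and 10 to 32 highest at 9 D in pp7l. The replicate block gave 2 lower at 6 D; same-numbered libraries shared only a number, with correlations of -0.03 to 0.06. For the 77 tests of single genes that were printed or named by size (43 genes), 974 of 1078 alternatives kept the call, 101 lost it and 3 changed sign, all without a call after median-of-ratios scaling: CER1 at 15 D (-0.25), LACS1 at 15 D (-0.0741) and TUB6 at 9 D (-0.13). Leaving out 1 library lost a call of ACLB-2, AGP9, AT1G04680, STM and TUB6 at 9 D, ATCSLA09 and LACS1 at 15 D, CER1 at 6 D and 15 D, CER2 at 12 D, CESA4 and CESA8 at 6 D, and AT1G76360, AT5G63410, CESA5, GolS1 and NF-YA10 between 12 D and 9 D. The causes of these shifts were not tested. Depth is unknown, so no limit of detection can be given.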
